A study of Mus musculus with 3 samples.

Results

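The mRNAs of the mitochondrial respiratory chain and ATP synthase, from both the nuclear and the mitochondrial genome, were followed in the hippocampus of adult male mice born to older or to young mothers. Members were taken by name from the array annotation: gene names that begin with Nduf, Uqcr, Cox4, Cox5, Cox6, Cox7, Cox8 or Atp5, the succinate dehydrogenase genes Sdha, Sdhb, Sdhc and Sdhd, the cytochrome c1 gene Cyc1, and every probe that the array design places on the mitochondrial chromosome. This gave 106 of the 24505 gene names on the arrays: 12 mitochondrially encoded genes with 12 probes and 94 nuclear genes with 137 probes, or 149 of 39429 probes in all. The older mothers were 15 to 18 months old and the young mothers 3 months old at pairing, all fathers were 3 months old, and the sons were taken at postnatal day 120. Each of 3 two-colour arrays carried an older-mother pool in the dye Cy3 and a young-mother pool in Cy5, and every pool combined hippocampal total RNA of 3 males.

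The respiratory chain passes electrons from NADH and succinate through complexes I to IV to oxygen and pumps protons across the inner mitochondrial membrane, and complex V, the ATP synthase, uses the proton gradient to make ATP. Most subunits are encoded in the nucleus and imported. The mitochondrial DNA encodes a few core subunits of complexes I, III, IV and V, none of complex II, and is transcribed from both strands into long precursors that are cut into mRNAs. In the hippocampus this system supplies most of the ATP that neurons spend on ion pumping and synaptic transmission.

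The values below are log2 ratios of older over young mothers on each array, after background correction and loess balancing of the dyes. They are followed by their mean ± SD over the 3 arrays and by the adjusted p of limma, a linear model fitted to all 27631 probes that were above background. A gene is called higher or lower at an adjusted p under 0.05, and a gene with several probes is represented by its brightest one. All arrays had the same dye orientation, so a difference between the dyes and a difference between the groups cannot be told apart. The pools are described as biological replicates, and whether they shared litters is not stated. Between 64.6% and 66.7% of spots were well above background in Cy3 and between 71.0% and 74.9% in Cy5, and no spot was saturated. Of the 149 probes 147 passed the filter on dim signals, for 105 genes. One of the probes left out belonged to Ndufaf5, a complex I assembly factor that kept other probes. The other was the only probe of Cox8c, a testis isoform of a complex IV subunit, and was not well above background in either dye on any array. All 6 neuronal markers examined were measured, among them Prox1 of dentate granule cells and Neurod6 of pyramidal cells.

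Each mitochondrially encoded gene was read by 1 probe of 60 bases inside its coding sequence. The 7 probes on which the results turn are given here in the sense of the mRNA, 5′ to 3′, with their place on the mouse build mm9 that the array files name. Bases that also lie in a neighbouring, overlapping gene of the same strand are in capitals: ATP8 overlaps ATP6 and ND4L overlaps ND4, and each such pair is carried on a single mRNA. The ND1 probe lies at chrM:2898-2957, ND5 at chrM:13402-13461, ND6 at chrM:13552-13611 on the opposite strand, ATP8 at chrM:7870-7929, ATP6 at chrM:7965-8024, ND4L at chrM:10114-10173 and ND4 at chrM:11370-11429. None of these genes has introns.
ND1: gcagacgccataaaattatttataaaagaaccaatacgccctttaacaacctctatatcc
ND5: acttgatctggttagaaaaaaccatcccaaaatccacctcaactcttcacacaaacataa
ND6: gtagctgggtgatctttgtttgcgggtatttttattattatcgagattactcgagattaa
ATP8: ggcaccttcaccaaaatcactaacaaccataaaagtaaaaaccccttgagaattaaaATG
ATP6: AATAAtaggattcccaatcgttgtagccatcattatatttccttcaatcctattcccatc
ND4L: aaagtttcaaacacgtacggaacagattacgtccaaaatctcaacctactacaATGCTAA
ND4: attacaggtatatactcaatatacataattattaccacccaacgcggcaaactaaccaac

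Most mitochondrially encoded mRNAs were lower in the older-mother pools. All 12 genes had log2 ratios below 0 on all 3 arrays, against 36.3% of the 17899 named genes, and 8 of the 12 were called lower, against 12.2% of named genes. Called lower were ND1, ND2, ND4, ND5 and ND6 of complex I, CYTB of complex III, and ATP6 and ATP8 of complex V. Not called were ND4L and the complex IV genes COX1, COX2 and COX3, whose ratios were below 0 too; differences between the complexes were not tested. The median of the 12 genes was -0.20 on array 1, -0.33 on array 2 and -0.44 on array 3. Only 4 of the 8 calls, ND1, ND5, ND6 and ATP8, were also made after each array was centred on probes of like brightness, as described further on. Without array 2 or without array 3 none of the 12 was called. Without array 2 limma called 376 of the 27631 probes lower, and without array 3 it called none lower (29 higher).

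ND1, a core membrane subunit of complex I, had the largest difference. Its log2 ratios were -0.46, -0.84 and -1.45 on arrays 1, 2 and 3, all below 0, with array 3 far below array 1. The mean of -0.91 ± 0.50 (SD, n = 3; limma adjusted p = 0.0303) corresponds to an older-mother level of 0.530 of the young-mother level. Before dye balancing, the background-subtracted signal of the ND1 probe was 10345, 8026 and 4903 in the older-mother channel and 42800, 41455 and 41462 in the young-mother channel. Between arrays the signal varied mainly in the older-mother channel. ATP8, a small subunit of the membrane part of ATP synthase, showed the same order of arrays, with log2 ratios of -0.26, -0.62 and -1.02. Its mean was -0.63 ± 0.38 (SD, n = 3; limma adjusted p = 0.0380), and its signals were 17154, 14021 and 10597 in the older-mother channel against 63428, 64156 and 68927 in the young-mother channel.

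ND5, a proton-pumping subunit of complex I, had log2 ratios of -0.24, -0.36 and -0.49 and a mean of -0.36 ± 0.12 (SD, n = 3; limma adjusted p = 0.0225). ND6 is the complex I subunit encoded on the other strand from the rest, so its mRNA comes from a different precursor. It had log2 ratios of -0.18, -0.33 and -0.33 and a mean of -0.28 ± 0.08 (SD, n = 3; limma adjusted p = 0.0267), so genes of both strands were called lower. ND6 gave background-subtracted signals of 225, 216 and 221 in the older-mother channel and 702, 736 and 798 in the young-mother channel.

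The other 4 called genes had brighter probes. ND2 of complex I had log2 ratios of -0.19, -0.37 and -0.70 and a mean of -0.42 ± 0.26 (SD, n = 3; limma adjusted p = 0.0440). ATP6, the proton channel subunit of ATP synthase, had -0.17, -0.36 and -0.59 and a mean of -0.37 ± 0.21 (SD, n = 3; limma adjusted p = 0.0409). Cytochrome b, encoded by CYTB, carries electrons inside complex III; its log2 ratios of -0.28, -0.32 and -0.39 lay close together (mean -0.33 ± 0.06, SD, n = 3; limma adjusted p = 0.0185). ND4 of complex I had -0.21, -0.21 and -0.29 and a mean of -0.24 ± 0.05 (SD, n = 3; limma adjusted p = 0.0287). In all 4 the ratios lay below 0 on every array, and array 3 was the lowest.

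The 3 catalytic core subunits of cytochrome c oxidase were not called. COX1 had log2 ratios of -0.24, -0.10 and -0.10 (mean -0.15 ± 0.08, SD, n = 3; limma adjusted p = 0.0981). COX2 had -0.06, -0.11 and -0.23 (mean -0.14 ± 0.09, SD, n = 3; limma adjusted p = 0.124), and COX3 had -0.06, -0.23 and -0.52 (mean -0.27 ± 0.23, SD, n = 3; limma adjusted p = 0.0931). Array 3 was the lowest for COX2 and COX3, and array 1 for COX1. ND4L, a small membrane subunit of complex I, had -0.13, -0.09 and -0.14 (mean -0.12 ± 0.03, SD, n = 3; limma adjusted p = 0.104). ND3, whose probe the array design places on chromosome 1 and which is therefore not counted among the 12, had 0.01, -0.16 and -0.34 (mean -0.16 ± 0.18, SD, n = 3; limma adjusted p = 0.173). In all, array 3 gave the lowest ratio for 10 of the 12 mitochondrially encoded genes and array 1 the highest for 9, while array 3 was the lowest for 36.7% of all kept probes.

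**Figure D1:**
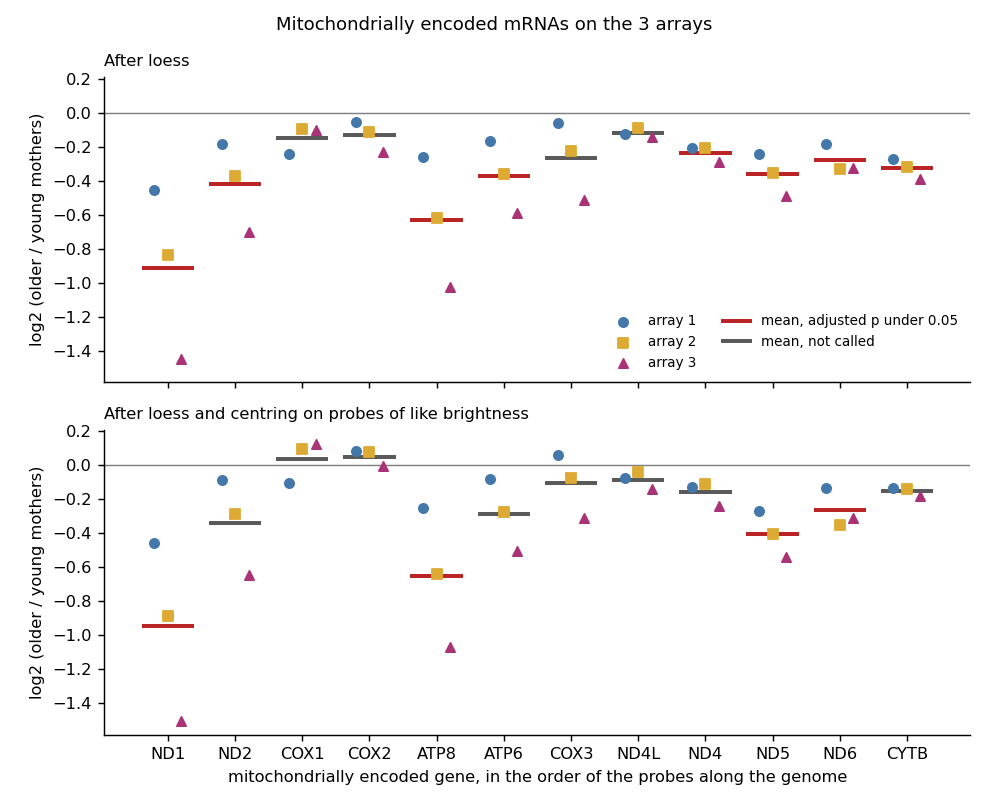
Log2 ratio of older over young mothers for the 12 mitochondrially encoded genes on arrays 1 (circles), 2 (squares) and 3 (triangles), after loess (upper panel) and after further centring on probes of like brightness (lower panel). Horizontal lines are means over the 3 arrays, red where the limma adjusted p is under 0.05: 8 genes in the upper panel and 4 (ND1, ATP8, ND5 and ND6) in the lower.

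Both overlapping gene pairs offered a comparison of probes on 1 mRNA. The difference of ATP8 minus ATP6 was -0.09, -0.26 and -0.43 on arrays 1, 2 and 3 and averaged -0.26 ± 0.17 (SD, n = 3). ND4L minus ND4 was 0.08, 0.12 and 0.15, a mean of 0.12 ± 0.03 (SD, n = 3). Each of these differences kept its sign on the 3 arrays, so probes of 1 mRNA gave ratios that differ. The share of G and C bases hardly varied over the 12 probes (35.0% to 38.3%). The distance of the probe from the 3′ end of its gene, read with RefSeq gene lengths, ran from 0 bases for ND4L and ND6 to 583 for ATP6 and 750 for ND1. Over the 12 probes, which share the same arrays, it went with lower mean ratios (r = -0.65, rho = -0.52), and the size of r depended on the probes taken: r was -0.19 and rho -0.37 without ND1 (n = 11), and r was -0.80 and rho -0.56 without ATP8 and ND4L (n = 10), whose mRNAs run on into the next gene. Over 2622 transcripts with probes at least 500 bases apart, the 5′ probe minus the 3′ probe had a median log2 ratio of 0.04 on array 1, 0.03 on array 2 and -0.01 on array 3. The part of RNA length or integrity in the ratios was not tested.

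The brightest probes as a class lay below 0 after loess, and most mitochondrially encoded genes have such probes. Brightness is the mean log2 intensity of both dyes. The median log2 ratio of all kept probes was 0.04 at a brightness of 14 to 15 (648 probes), -0.15 at 16 to 17 (91 probes, of which 5 mitochondrial) and -0.22 from 17 up (14 probes, of which 2 mitochondrial). Of the 91 probes 31.9% were called lower. Each array was therefore also centred on the running median of the 50 other probes nearest in brightness, an alternative chosen after seeing the data, under which 8.75% of named genes were called lower.

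After this centring ND1 (-0.95 ± 0.53), ATP8 (-0.65 ± 0.41), ND5 (-0.41 ± 0.14) and ND6 (-0.27 ± 0.11, each SD, n = 3) were still called lower, with limma adjusted p between 0.0198 for ND5 and 0.0381 for ATP8. These 4 have probes at a brightness of 14.1, 14.9, 14.2 and 8.90. ND2 (-0.34), ATP6 (-0.29), ND4 (-0.16) and CYTB (-0.15) kept ratios below 0 on all 3 arrays but were no longer called, with limma adjusted p between 0.0716 and 0.0834. COX1 and COX2 turned to means of 0.04 and 0.05, and 9 of the 12 genes remained below 0 on all arrays, against 31.4% of named genes. The median of the 12 genes was -0.12, -0.21 and -0.31 on the 3 arrays.

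**Figure D2:**
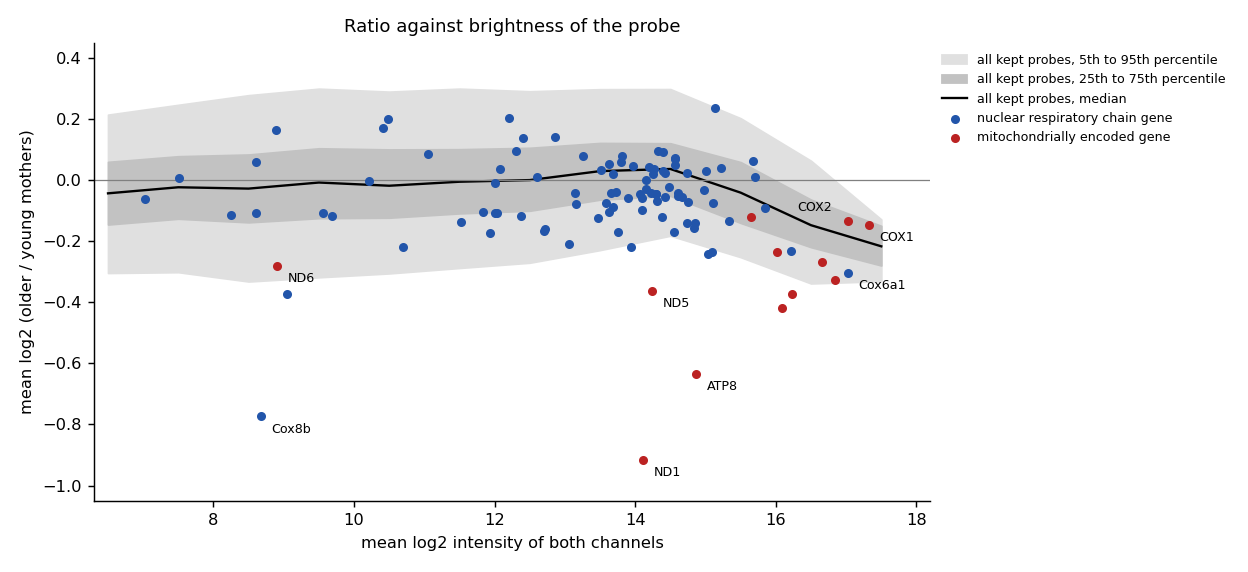
Mean log2 ratio of older over young mothers against the mean log2 intensity of the probe, for mitochondrially encoded (red) and nuclear (blue) respiratory chain genes, over the median and the percentile bands of all kept probes in steps of 1 unit of brightness. The median of all probes bends below 0 above a brightness of 15; ND1, ND2, ND5, ATP6, ATP8, Cox6b2 and Cox8b lie below the outer percentile band, Sdhb, Uqcrh and Atp5g3 lie at its lower edge, and COX1 and COX2 lie at or above the median of probes as bright as they are.

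Few nuclear genes of the respiratory chain were called. Of 93 nuclear member genes with a kept probe, 9 were called lower, against 12.2% of named genes, and 3 higher, against 7.35%. Of these shares, 9 of 93 is near the background and 3 of 93 is below it. The median log2 ratio of the 75 nuclear subunits of complexes I to V was -0.04 on array 1, -0.06 on array 2 and -0.04 on array 3, beside -0.03 on each array for all named genes. Of the 75 subunits, 49 had a mean within 0.1 of 0 on the log2 scale, and 38 had ratios below 0 on all 3 arrays, as did 45 of the 93 member genes, against 36.3% of named genes. After centring on probes of like brightness the subunit medians were -0.07, -0.08 and -0.08, beside -0.01 on each array for all named genes, and 43 of the 75 were below 0 on all arrays, against 31.4%. Under that centring 8 nuclear genes were called lower and 3 higher, against 8.75% and 7.41% of named genes: 7 kept their call, 5 lost it, and Ndufa5, Sdha, Atp5g2 and Ndufaf4 were called in addition.

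Complex I, with 36 nuclear subunits measured, had a median of -0.05 and 1 call. Ndufb6, an accessory subunit of its membrane arm, had log2 ratios of -0.16, -0.28 and -0.20 and a mean of -0.21 ± 0.06 (SD, n = 3; limma adjusted p = 0.0386). The second probe of Ndufb6 had a mean of -0.05. Of the core subunits that take up electrons from NADH, Ndufv1, which binds FMN, had a mean of 0.04 ± 0.10. Ndufs1, which holds iron-sulphur clusters, had 0.03 ± 0.03 (each SD, n = 3). Ndufv2 had -0.09 ± 0.01 (SD, n = 3), below 0 on all arrays, and was not called. The means of the other complex I subunits ran from -0.17 for Ndufa11 to 0.14 for Ndufa6, and 19 of the 36 were below 0 and 9 above 0 on all arrays. Ndufa5, an accessory subunit, had a mean of -0.14 and was called lower only after centring on brightness (-0.18, limma adjusted p = 0.0480). The second, dimmer probe of Ndufa5 had a mean of 0.02 after loess and lay above 0 on all arrays.

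Complex II is succinate dehydrogenase, the citrate cycle enzyme that is also part of the chain, and its 4 genes split. Sdhc, a membrane anchor, had log2 ratios of 0.23, 0.17 and 0.22 and a mean of 0.20 ± 0.03 (SD, n = 3), and was called higher (limma adjusted p = 0.0349). The iron-sulphur subunit Sdhb had -0.26, -0.25 and -0.14 and a mean of -0.22 ± 0.06 (SD, n = 3), and was called lower (limma adjusted p = 0.0366). The other anchor, Sdhd, lay above 0 on all arrays (0.14, 0.16 and 0.11; limma adjusted p = 0.0763), and the flavoprotein Sdha below 0 on all arrays (-0.15, -0.12 and -0.21; limma adjusted p = 0.0608, and 0.0484 after centring on brightness). Thus both membrane anchors had positive and both catalytic subunits negative ratios on every array. Of the 17899 named genes, 36.3% were below 0 and 4342 were above 0 on all arrays. The difference between the anchors and the catalytic subunits was not tested. When all probes of a gene were averaged, neither Sdhb (-0.16, limma adjusted p = 0.0595) nor Sdhc (0.14, limma adjusted p = 0.0631) was called.

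Complex III had a median of -0.06 over 9 nuclear subunits, with 2 called lower. Uqcrh, the hinge protein that holds cytochrome c1, had log2 ratios of -0.21, -0.22 and -0.30 and a mean of -0.24 ± 0.05 (SD, n = 3; limma adjusted p = 0.0277). Uqcrc1, a core protein of the matrix side, had -0.18, -0.15 and -0.17 and a mean of -0.17 ± 0.01 (SD, n = 3; limma adjusted p = 0.0494). Cytochrome c1 itself, Cyc1, had a mean of -0.04 ± 0.05, and the Rieske iron-sulphur protein Uqcrfs1 of -0.12 ± 0.09 (each SD, n = 3), neither of them called. Uqcrh kept its call after centring on probes of like brightness and Uqcrc1 did not (limma adjusted p = 0.0875). A second, dimmer probe of Uqcrh had a mean of -0.15 after loess and was not called (limma adjusted p = 0.0725).

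Complex IV had a nuclear median of 0.00 over 11 subunits, with calls in both directions. Cox6a1, a regulatory subunit, had log2 ratios of -0.28, -0.31 and -0.32 and a mean of -0.30 ± 0.03 (SD, n = 3; limma adjusted p = 0.0185). Cox8a, the smallest subunit, had -0.30, -0.23 and -0.17 and a mean of -0.23 ± 0.07 (SD, n = 3; limma adjusted p = 0.0331). Both have very bright probes (17.02 and 16.22 on the log2 intensity scale). After centring on probes of like brightness neither was called, at -0.12 (limma adjusted p = 0.123) for Cox6a1 and -0.13 (limma adjusted p = 0.137) for Cox8a. A second, dimmer probe of Cox8a had a mean of -0.14 after loess and was not called (limma adjusted p = 0.0967).

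Cox5a, a matrix-side subunit, was called higher, with log2 ratios of 0.12, 0.35 and 0.24 and a mean of 0.24 ± 0.11 (SD, n = 3; limma adjusted p = 0.0466, and 0.0556 after centring on brightness). Its neighbours in the enzyme were not called: the regulatory subunit Cox4i1 had 0.06 ± 0.08, Cox6b1 -0.01 ± 0.03, Cox6c 0.03 ± 0.02, Cox7a2 0.00 ± 0.01 and Cox7b -0.14 ± 0.04 (each SD, n = 3). Ndufa4, now counted with complex IV, ranged widely, from -0.08 on array 1 to 0.26 on array 3, at a mean of 0.08 ± 0.17 (SD, n = 3).

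Complex V had a nuclear median of -0.05 over 15 subunits and no call in either direction at an adjusted p under 0.05. The catalytic subunits Atp5a1 and Atp5b had means of -0.17 ± 0.09 and -0.09 ± 0.06, and Atp5o of the stalk 0.08 ± 0.04 (each SD, n = 3). The 3 genes for the membrane ring subunit c encode the same mature protein. They gave -0.07 ± 0.07 for Atp5g1, -0.16 ± 0.03 for Atp5g2 and -0.24 ± 0.12 for Atp5g3 (each SD, n = 3), with limma adjusted p of 0.310, 0.0574 and 0.0511. After centring on brightness Atp5g2 was called lower (-0.21, limma adjusted p = 0.0358). The dimmer probes of Atp5g2 had means of 0.02 and 0.06 after loess and were not called. A second, dimmer probe of Atp5g1 was called higher (0.38, 0.24 and 0.18; mean 0.27). Such disagreement was common: 31 nuclear genes had over 1 kept probe, and in 20 of them the probes had both signs.

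**Figure D3:**
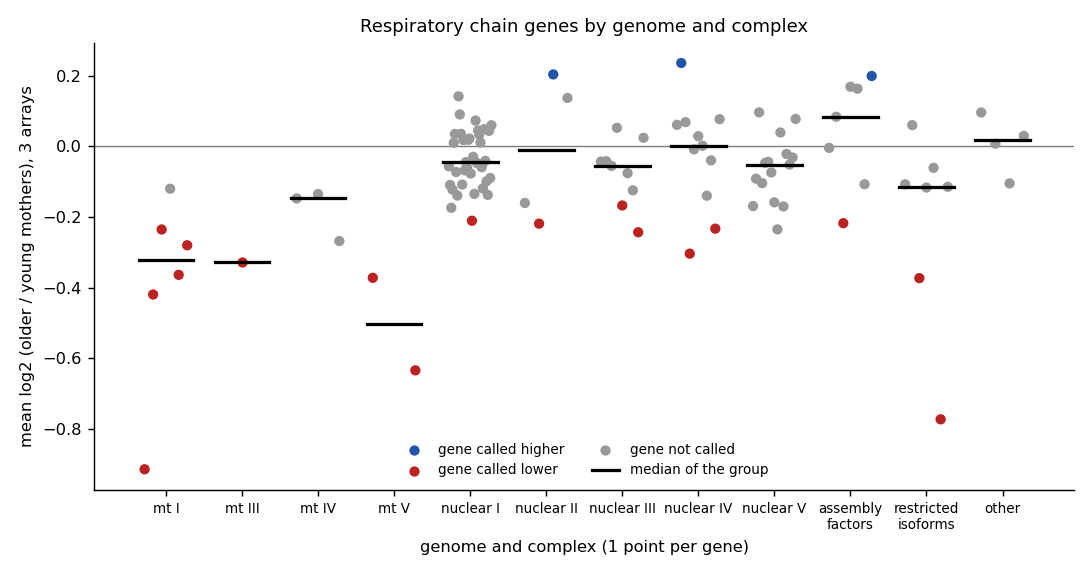
Mean log2 ratio of older over young mothers over the 3 arrays, 1 point per gene, by genome and complex; blue points were called higher, red points lower and grey points were not called (limma adjusted p under 0.05), and black lines are medians of each group. Nuclear complexes I to V have medians between -0.06 and 0.00, and the mitochondrially encoded genes of complexes I, III, IV and V have medians of -0.32, -0.33, -0.15 and -0.50.

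Set side by side on each array, the median of the mitochondrially encoded genes was below that of the nuclear subunits by 0.16, 0.26 and 0.40 log2 units, a mean difference of -0.27 ± 0.12 (SD, n = 3 arrays). No p is given for this difference, since the members were chosen together. In the deposited value table of log2 ratios the differences were -0.18, -0.27 and -0.39, with 8 mitochondrially encoded genes lower, against 11.0% of named genes there. By complex the deposited table gave mitochondrial medians of -0.32 for complex I, -0.33 for complex III, -0.15 for complex IV and -0.50 for complex V. With Agilent's own processed signals the differences were -0.08, -0.12 and -0.30, with array 3 again the lowest, and no member was called in either direction, while 5.59% of named genes were called lower and 3.64% higher. After centring on probes of like brightness the differences were -0.05, -0.12 and -0.23 (mean -0.14 ± 0.09, SD, n = 3 arrays).

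**Figure D4:**
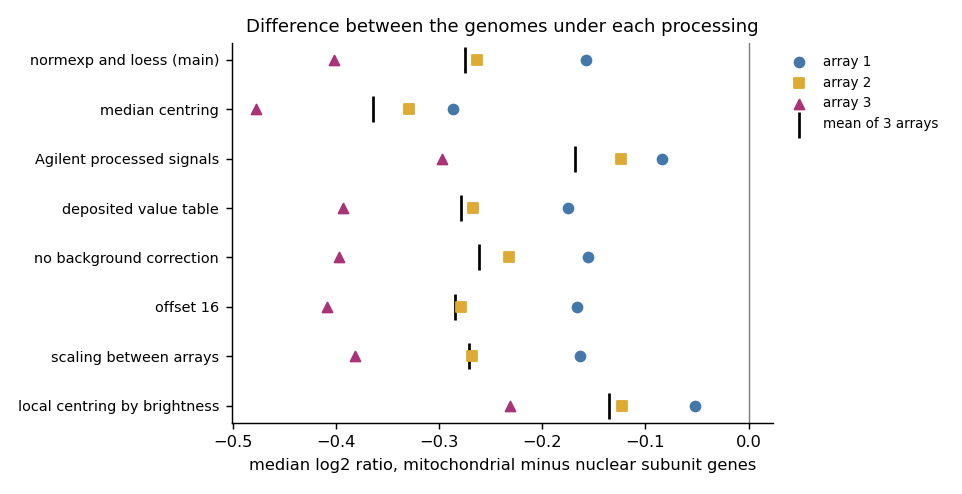
Median log2 ratio of the mitochondrially encoded genes minus that of the 75 nuclear subunits, on each array and as the mean of 3 arrays, under 8 ways of processing. All values are below 0 and array 3 has the lowest value in each, and the mean runs from -0.36 with median centring to -0.14 with local centring by brightness.

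Isoforms that replace the usual subunit in particular tissues had a median of -0.11 over 7 genes, with 2 called lower, against 12.2% of named genes. Cox8b, the heart and muscle form of subunit VIII, had log2 ratios of -0.60, -1.34 and -0.38 and a mean of -0.77 ± 0.50 (SD, n = 3; limma adjusted p = 0.0426). Its background-subtracted signals were 144, 85.6 and 226 in the older-mother channel and 648, 753 and 852 in the young-mother channel. Cox6b2, a testis form, had -0.35, -0.54 and -0.22 and a mean of -0.37 ± 0.16 (SD, n = 3; limma adjusted p = 0.0281). For both genes array 2 was the lowest and array 3 the highest, and Cox7a1, a heart and muscle form, ran in that order too without a call (-0.10, -0.30 and 0.05; limma adjusted p = 0.30). The order differs from that of the mitochondrially encoded genes, for which array 3 was the lowest.

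Markers of the choroid plexus, the epithelium that makes cerebrospinal fluid and lies beside the hippocampus, ran in the array order of Cox8b. The 10 markers had medians of -0.85, -2.07 and -0.37 on arrays 1, 2 and 3; 9 of them lay below 0 on all arrays, and 3 were called lower. Their means ran from -2.08 for Ttr, the transthyretin carrier, to 1.00 for Kcne2, the exception. The 6 leptomeningeal markers had medians of -0.41, -0.51 and -0.36 with 4 called lower, and the 6 neuronal markers of -0.09, -0.08 and -0.09, with Neurod6 (-0.34) and Rbfox3 (-0.24) called lower and Syt1 (0.26) higher. Array 2 was the lowest and array 3 the highest for the leptomeningeal medians too. Of the single leptomeningeal markers only Igf2 and Aldh1a2 had that order. Ogn and Fmod were lowest on array 3, and Dcn and Slc6a13 on array 1. The medians of the 75 nuclear subunits (-0.0406, -0.0624 and -0.0362) had the order of the leptomeningeal medians as well but lay close together. Gene by gene, array 3 was the lowest for 37 of the 93 nuclear member genes, array 2 for 29 and array 1 for 27. Of 4 endothelial markers Cldn5 (-0.63) and Slco1a4 (-0.46) were called lower and Flt1 (0.38) higher. Of 4 astrocyte markers Gfap (0.48) was called higher, of 4 microglial markers Cx3cr1 (-0.46) lower, of 3 erythroid markers Hbb-b1 (-0.32) lower, and none of 4 oligodendrocyte markers was called at an adjusted p under 0.05. In these bulk pools fewer cells of a type and less RNA per cell cannot be told apart, and the part of choroid plexus or other cells in the ratios of the members was not tested. The remaining isoforms were Cox4i2 at -0.11 ± 0.05, Ndufa4l2 at -0.11 ± 0.02, Cox7b2 at -0.06 ± 0.13 and Cox6a2 at 0.06 ± 0.14 (each SD, n = 3), none of them called.

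**Figure D5:**
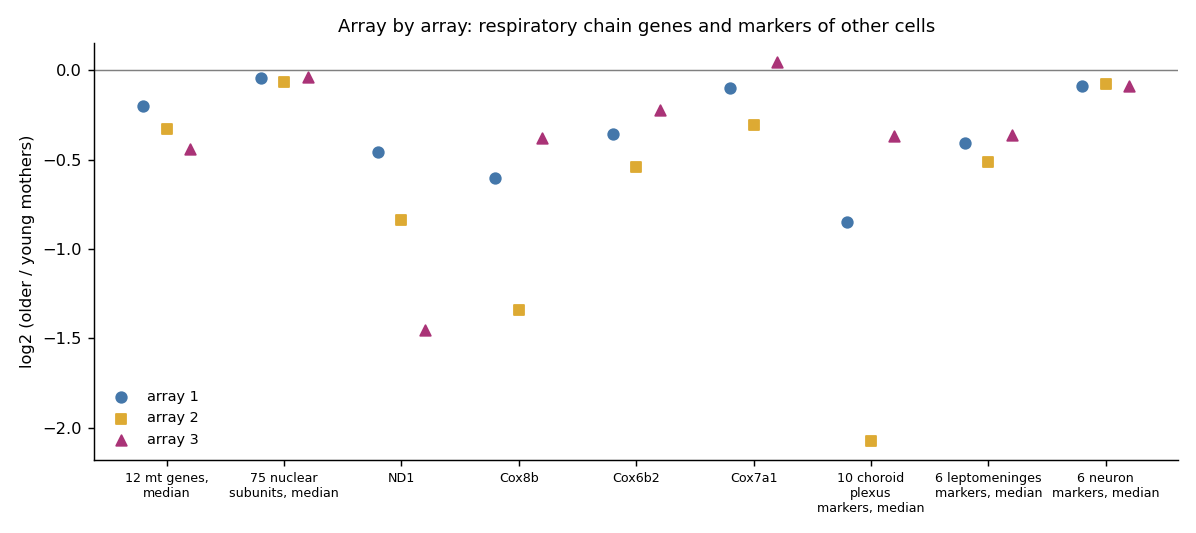
Log2 ratio of older over young mothers on arrays 1 (circles), 2 (squares) and 3 (triangles) for medians of the mitochondrially encoded genes, the nuclear subunits and 3 marker lists, and for 4 single genes. Array 3 is the lowest for the mitochondrially encoded genes and ND1. Array 2 is the lowest for Cox8b, Cox6b2 and Cox7a1 and for the medians of the choroid plexus and leptomeningeal markers. It is also the lowest for the median of the nuclear subunits, whose values lie close together on the 3 arrays.

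The 7 complex I assembly factors within the naming rule had a median of 0.08. Ndufaf7, a mitochondrial methyltransferase, was called higher, with log2 ratios of 0.14, 0.26 and 0.20 and a mean of 0.20 ± 0.06 (SD, n = 3; limma adjusted p = 0.0424). Ndufaf3, which acts early in assembly, was called lower, with -0.19, -0.15 and -0.31 and a mean of -0.22 ± 0.08 (SD, n = 3; limma adjusted p = 0.0416, and 0.0553 after centring on brightness). Cox7a2l, which joins complexes III and IV into supercomplexes, had a mean of 0.03 ± 0.01 (SD, n = 3) and was not called.

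Genes that surround the chain in energy metabolism, in 7 lists with 158 of 164 genes measured, gave 8 calls higher and 20 lower, with a median of -0.05. The share called lower, 20 of 158, is near the 12.2% of all named genes. Of 33 genes that replicate or express mitochondrial DNA, 1 was called higher, against 7.35% of named genes, and 3 lower, against 12.2%. The lower ones were the transcription factor Tfb2m (-0.18 ± 0.02), the ribosomal RNA methyltransferase Tfb1m (-0.25 ± 0.08) and Elac2 (-0.24 ± 0.07), which cuts tRNA ends out of mitochondrial precursors. Mterf3, a factor that restrains mitochondrial transcription, was higher (0.23 ± 0.04, each SD, n = 3), and limma adjusted p for these 4 genes ran from 0.0293 to 0.0417. Over the 33 genes, 16 were below 0 and 6 above 0 on all arrays. Tfam was among these 6, at 0.17 ± 0.04 (SD, n = 3), and was not called.

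Of 15 regulators of mitochondrial biogenesis 3 were called higher, against 7.35% of named genes, 1 was called lower, against 12.2%, and 11 were not called; the median was 0.05. Higher were the coactivator Ppargc1a (0.18, 0.20 and 0.35; mean 0.24 ± 0.09), its partner receptor Esrra (0.26, 0.19 and 0.20; mean 0.22 ± 0.03) and Nfe2l2, the regulator of antioxidant genes (0.24, 0.12 and 0.29; mean 0.21 ± 0.09, each SD, n = 3). All 3 were above 0 on every array, at limma adjusted p of 0.0372, 0.0311 and 0.0457. The related receptor Esrrb was lower, at -0.21 ± 0.08 (SD, n = 3; limma adjusted p = 0.0487).

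Of 23 genes of pyruvate oxidation and the citrate cycle, 6 were called lower, against 12.2% of named genes, and 1 higher, against 7.35%. Mpc1, a subunit of the mitochondrial pyruvate carrier, was at -0.33 ± 0.13, Dlst of the oxoglutarate dehydrogenase complex at -0.28 ± 0.03, Idh3a of NAD-dependent isocitrate dehydrogenase at -0.25 ± 0.06 and Sucla2 of succinyl-CoA synthetase at -0.22 ± 0.06 (each SD, n = 3). Their limma adjusted p ran from 0.0209 to 0.0339. Among 21 carriers and transporters 3 were called lower, against 12.2% of named genes, and none higher at an adjusted p under 0.05, against 7.35%. Etfdh (-0.32 ± 0.06) and Etfa (-0.25 ± 0.11, each SD, n = 3) of these feed electrons from fatty acid oxidation into ubiquinone, and the third, Cyct, is the testis cytochrome c (-0.22 ± 0.04, SD, n = 3). Etfb of the same list had a mean of -0.01 ± 0.09 (SD, n = 3) and was not called.

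Of 43 assembly factors outside the naming rule, 5 were called lower, against 12.2% of named genes, and 2 higher, against 7.35%. The complex II factors Sdhaf4 (-0.33 ± 0.04) and Sdhaf1 (-0.27 ± 0.03) were both lower, as were the copper chaperone Cox17 (-0.40 ± 0.17) and Coa7 (-0.21 ± 0.02, each SD, n = 3), both needed for complex IV. Of the other complex II factors in the list, Sdhaf2 (-0.13 ± 0.01) lay below and Sdhaf3 (0.17 ± 0.07) above 0 on all arrays, neither of them called. The 2 called higher were Cox10 (0.20 ± 0.07) and Tmem126a (0.20 ± 0.07, each SD, n = 3). In ubiquinone synthesis 1 of 13 genes was called lower, against 12.2% of named genes, and 1 higher, against 7.35%. The lower one was Coq8a (-0.30 ± 0.06) and the higher one Coq10b (0.35 ± 0.13, each SD, n = 3). Of 10 genes listed as mitochondrial antioxidants 1 was called lower, against 12.2% of named genes, and 0 higher, against 7.35%. The gene called was Sod1, the copper-zinc superoxide dismutase (-0.28 ± 0.04, SD, n = 3, limma adjusted p = 0.0214). Sod2 of the same list had a mean of -0.11 ± 0.07 (SD, n = 3, limma adjusted p = 0.151) and was not called.

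Many nuclear respiratory genes are known targets of the transcription factor NRF1, so the promoters were searched on both strands for its core motif, in which GCGCA and GCGC flank 1 base of any kind. In the RefSeq promoter set (build GRCm38.p6), 14 of 76 member genes with a promoter entry held it in the 250 bases before the start site (18.4%), against 1144 of 27025 genes of the set (4.23%). The 4 stretches printed here, with the match in capitals, are those of the gene with the lowest ratio of the 14, of the 2 complex II genes that differed in sign, and of the gene with the highest ratio. They lie at chr5:115349091-115349140 (minus strand, Cox6a1), chr13:74350309-74350358 (minus strand, Sdha), chr9:50603899-50603948 (minus strand, Sdhd) and chr4:24897950-24897999 (plus strand, Ndufaf4).
Cox6a1: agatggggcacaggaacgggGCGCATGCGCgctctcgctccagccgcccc
Sdha: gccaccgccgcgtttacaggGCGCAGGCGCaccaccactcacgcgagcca
Sdhd: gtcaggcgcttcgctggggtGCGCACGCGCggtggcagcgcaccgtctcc
Ndufaf4: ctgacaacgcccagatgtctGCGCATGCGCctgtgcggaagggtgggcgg

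The mean log2 ratios of the 14 genes ran from -0.30 for Cox6a1 to 0.17 for Ndufaf4, a complex I assembly factor, with a median of -0.01, and after loess Cox6a1 was the only one called. After centring on brightness Cox6a1 was not called, while 3 others were lower (Atp5g2, Ndufa5 and Sdha) and Ndufaf4 was higher (0.21, limma adjusted p = 0.0472). A match to these letters describes the sequence and does not show that the factor binds there.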

How the data were processed

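Hippocampal RNA pools were compared on 3 two-colour Agilent arrays, 1 older-mother pool (Cy3) and 1 young-mother pool (Cy5) on each. Scanner output came from Agilent Feature Extraction 10.10.1.1, per the file headers, and gives the mean signal and local background of each spot as intensity, not normalized. Its processed signals, also intensity per the file headers, were adjusted by that software for background and, with LOWESS, for dye; its log10 ratios, per the file headers, run Cy5 over Cy3 and entered no fit. Flags (other) mark each spot with 0 or 1, per the file headers. The table of log2 ratios that the authors deposited runs Cy3 over Cy5. How it was made is not given in the sources used here; normexp (offset 50) and loess on the median signals gave the same numbers to within 5e-10.

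Mean signals were corrected with normexp (offset 50) and balanced with loess (span 0.3) in limma 3.58.1 under R 4.3.3, with weight 0 for control and flagged spots. Spots of a probe were averaged. Probes well above background in 1 dye on all 3 arrays were kept (27631 of 39429). The ratios were fitted with an intercept (lmFit, eBayes, 2 residual and 3.42 prior degrees of freedom), two-sided, with Benjamini-Hochberg adjustment over all kept probes; the offset pulls the ratio of a dim probe towards 0. The arrays share a slide and a scan, so neither was modelled as a batch. The fit was tested on simulated data. Alternatives covered the signal source, background, dye balance, scaling, filters, variance prior, probe choice, a separate-channel fit and each array left out. The number of arrays limits the precision.

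The members and gene lists were chosen with earlier results of these data known. Named are all mitochondrially encoded genes, nuclear genes called with 1 sign on all arrays, a fixed list of core subunits and isoform families, genes whose probes disagree in sign where 1 is called, and up to 4 called genes of each other list. Ndufaf4, Ndufa5, Ndufa6, Ndufa11, Ndufv2, ND3, Tfam, Etfb, Sdhaf2, Sdhaf3, Cox10, Tmem126a, Sod2 and the marker genes were added after their values were seen. So were the distance to the 3′ end, the brightness classes and the promoter motif, first searched with 1 fixed middle base and then widened to any base. Mitochondrial gene lengths and promoters are from RefSeq (GRCm38.p6).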

Additional observations from a re-analysis of the deposited data

How the results depend on the processing

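The limits are the 3 arrays, the single dye orientation and the dye curve of the brightest probes. With 3 arrays, 8 mitochondrially encoded genes, 9 nuclear genes and 20 list genes were lower and 3 nuclear and 8 list genes higher. With Agilent's processed signals these counts were 0, 0, 5, 0 and 3, with an offset of 16 they were 5, 4, 13, 0 and 4, and without background correction 8, 15, 32, 7 and 13. Without the filter 1 nuclear gene and 5 list genes were higher. With a variance trend and robust prior 5 mitochondrially encoded genes were lower, and with centring on brightness 4. In the separate-channel fit with the replicate block 18 nuclear and 32 list genes were lower. No other paired analysis was possible, because each ratio already pairs the pools of an array. Median centring moves the median of all kept probes to -0.33, and relative to 0 it made 91 nuclear and 142 list genes lower and 0 nuclear genes higher. Its medians were -1.15 for mitochondrially encoded genes and -0.80 for nuclear subunits, and it turned the sign of Cox5a (-0.58), Sdhc (-0.44), Ndufaf7 (-0.36), Ndufs1 (-0.68), Ndufv1 (-0.71), Sdhd (-0.52), Cox4i1 (-0.79), Atp5o (-0.62), Cox6a2 (-0.30), Cox6c (-0.78), Cox7a2 (-0.76), Cox7a2l (-0.74) and Ndufa4 (-0.66). Leaving out 1 array gave 0 to 7 mitochondrially encoded, 0 to 2 nuclear and 0 to 14 list genes lower, 0 to 1 nuclear and 0 to 2 list genes higher, a mitochondrial median of -0.36 to -0.26 and a nuclear subunit median of -0.0545 to -0.0263. The nuclear subunit median was -0.0789 with centring on brightness. The cause of these shifts was not tested. Of the 48 named member genes 0 turned sign under the other settings as a called result.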
